A study of Mus musculus with 9 samples.

Results

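Semaphorins, ephrins and Slits are guidance ligands, and plexins, neuropilins, Eph receptors and Robo receptors are the proteins that bind them. The genes described here were the rows of the coding gene table whose symbol belongs to 1 of these families (Sema3 to Sema7, Plxna to Plxnd, Nrp1 and Nrp2, Efna and Efnb, Epha and Ephb, Slit1 to Slit3 and Robo1 to Robo4). The rule found 61 of 22564 entries, of which 32 were ligand genes and 29 receptor genes. The 61 entries carried 60 symbols, because Efna5 was listed under 2 identifiers. The RNA was total RNA of wild type mouse hearts from embryonic day 18 (E18), from newborns aged 3 days (3d) and from adults aged 8 weeks (8w). A stage was represented by 3 libraries, named biological replicates in the titles. Nothing says that they came from separate animals, so p-values measure the spread between these samples, which may be technical. The labels give heart as the tissue and also use the words embryonic, neonatal and adult cardiocytes, and strain, sex and pooling were not given in them. The comparisons follow the guidance genes through the end of gestation, the first days of life and adulthood.

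These families were first known for steering axons, by attracting or repelling the tip of a growing fibre. Class 3 semaphorins are secreted and act through a neuropilin paired with a plexin, whereas most other semaphorins sit in the membrane and bind plexins directly. Ephrins are held in the membrane too, so that Eph signalling needs contact between cells, and Slits are secreted and bind Robo receptors. In the heart the same proteins are known from septation of the outflow tract, valve formation, the separation of arteries from veins and the patterning of sympathetic nerves.

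The libraries held 10694049 to 14201783 estimated fragments over the coding genes. Levels are FPKM, the number of fragments per transcript length and library size, as the authors computed it. Length is divided out so that genes can be set side by side, but the lengths used were not given. Sema4a at 8w had 40, 36 and 39 fragments but 1.18, 1.69 and 4.46 FPKM, so comparisons of levels between genes are approximate. The cardiomyocyte markers (Tnnt2, Actc1, Myh6, Pln, Ryr2 and Ttn) summed to 10000 to 10300 FPKM at E18 and to 17000 to 18500 at 8w, with Ttn listed at 0 in every library. Since Ttn is used by every cardiomyocyte, a 0 in these tables can be a failed estimate. The labels do not settle whether whole hearts or isolated cells were used, and RNA of several cell types was present, so fewer cells of a type and less RNA per cell cannot be told apart in any result given here.

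The guidance genes together took a small and shrinking part of the coding signal. Their summed level was 538 ± 11.2 FPKM at E18, 473 ± 39.3 at 3d and 370 ± 5.33 at 8w (mean ± SD, n = 3 libraries here and throughout). This was 0.141% to 0.143% of all coding FPKM at E18 and 0.0964% to 0.0996% at 8w. The ligand genes fell from 254 ± 4.49 FPKM at E18 to 149.8 ± 3.14 at 8w, and the ranges of these sums did not overlap. The receptor genes summed to 284 ± 7.43 FPKM at E18 and 220.2 ± 6.53 at 8w. Nrp1, the co-receptor of class 3 semaphorins and of vascular endothelial growth factor (VEGF), was the most abundant of the 61 at every stage, and its libraries did not overlap with those of the next gene at any stage.

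Of the 61 genes, 43 reached a mean of 1 FPKM over the 9 libraries and were tested among 11954 coding genes. A call is a limma adjusted p under 0.05, and log2 fold changes are on the log2(FPKM + 1) scale, which understates the change of low genes. Between E18 and 3d, 14 of the 43 were called, 5 higher and 9 lower, which is 32.6% against 26.4% of all tested genes (4.99% higher and 21.4% lower). Between 3d and 8w, 25 were called, 6 higher and 19 lower, which is 58.1% against 58.4% of all tested genes (21.4% higher and 37.1% lower). Between E18 and 8w, 32 were called, 9 higher and 23 lower, which is 74.4% against 65% of all tested genes (17.7% higher and 47.3% lower). The share called was thus near the background from 3d to 8w and above it in the other 2 comparisons on this scale, a difference that was not tested. Each stage enters 2 of the comparisons, so they share libraries.

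The scale of the libraries bears on these counts. The median log2 fold change over all tested genes was -0.153 from E18 to 3d, -0.178 from 3d to 8w and -0.324 from E18 to 8w. The medians over the 43 guidance genes were -0.129, -0.353 and -0.582 in the same order. With each library centred on its median, the split for 3d against E18 became 6 higher and 1 lower among the guidance genes and 1141 higher and 1001 lower among all genes. The split for 8w against 3d became 8 higher and 18 lower among the guidance genes, and 3394 and 3177 among all genes. For 8w against E18 it became 12 higher and 19 lower, and 3673 and 3170 among all genes. The centred fit thus called 17.9%, 55% and 57.2% of all genes in the 3 comparisons. The edgeR fit to recovered fragments gave 6 and 3, 9 and 18, and 12 and 21 for the guidance genes of the 3 comparisons, and called 22%, 59.8% and 62.2% of all tested genes.

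**Figure D1:**
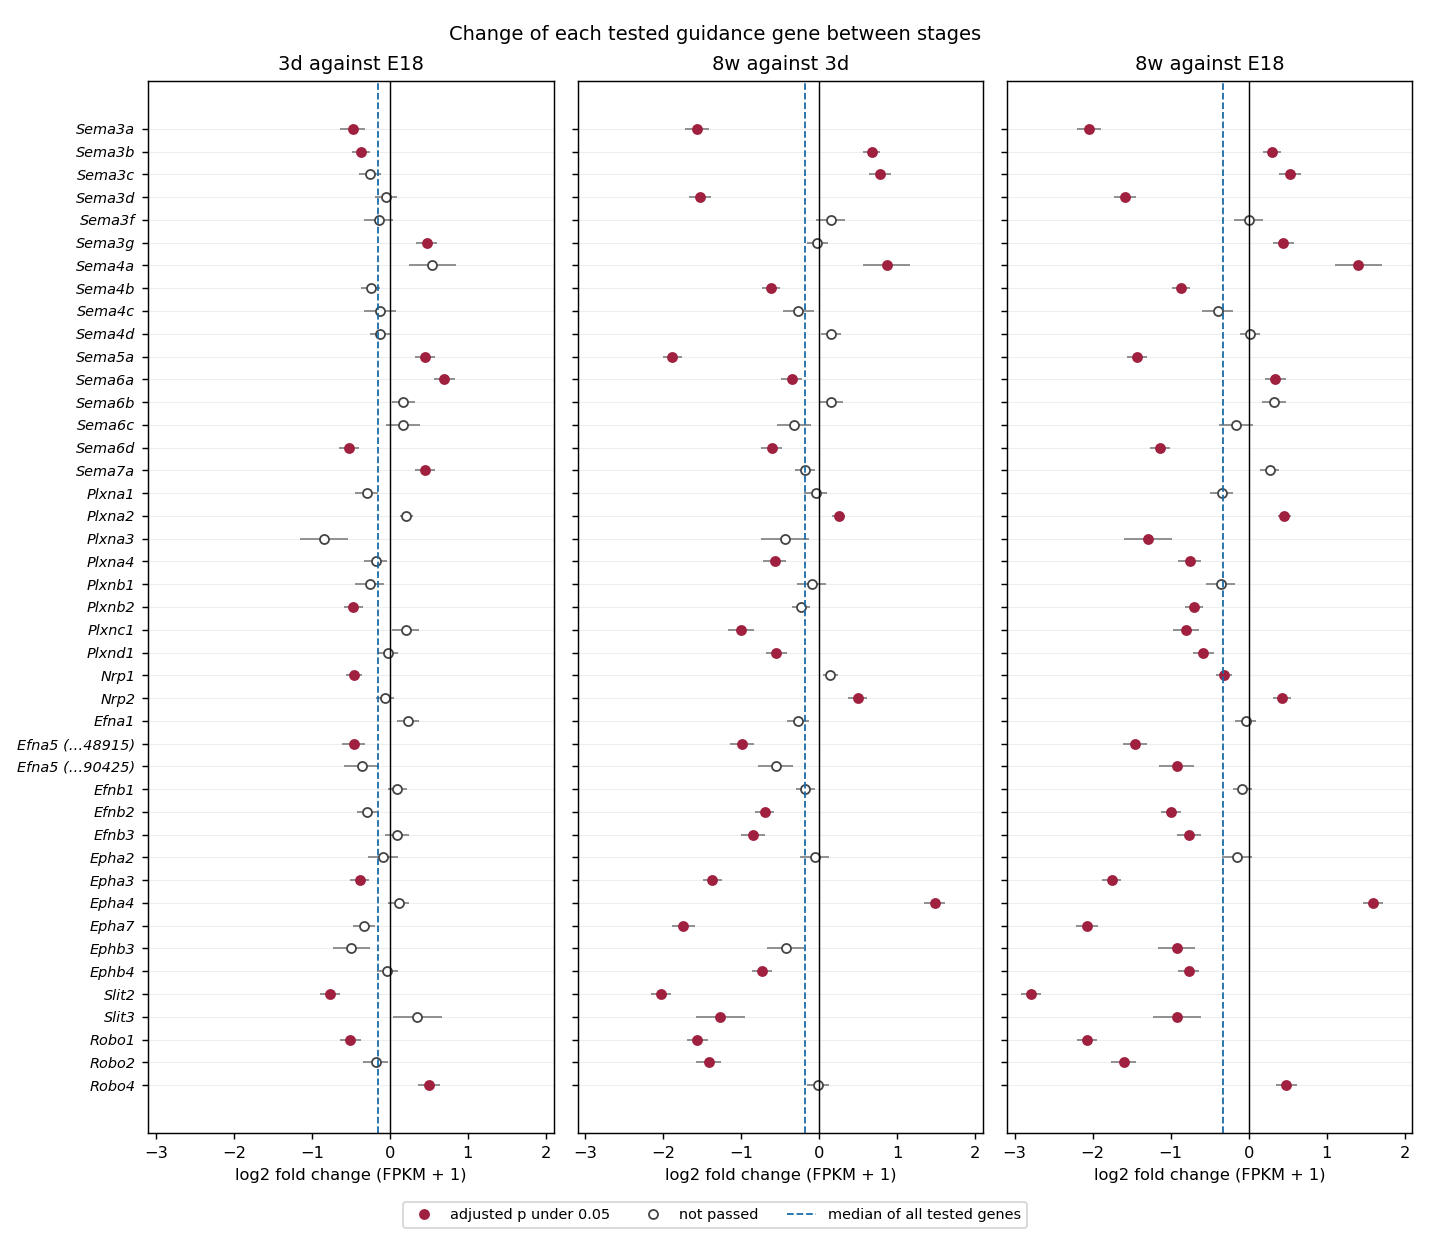
Log2 fold change of FPKM + 1 (x axis) for the 43 tested guidance genes (rows), with 1 panel per comparison. Filled points passed a limma adjusted p of 0.05, open points did not, bars are 1 SE, and the dashed line is the median of all tested coding genes. Slit2 lies furthest to the left in the middle and right panels and Epha4 furthest to the right.

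Slit2 made up most of the Slit signal before and just after birth and had fallen steeply by 8w. It encodes a secreted repellent, and in the mouse the Slit and Robo genes are needed for normal septa and valves. Slit2 stood at 33.7, 29.96 and 29.98 at E18, 19.9, 18.5 and 15.6 at 3d, and 3.79, 4.17 and 3.01 at 8w FPKM. The 3 stages did not overlap, and every 8w library was below every 3d library. The log2 fold change was -0.76 ± 0.13 (SE, limma adjusted p = 0.00246) from E18 to 3d, -2.03 ± 0.13 (SE, limma adjusted p = 4.45e-07) from 3d to 8w and -2.80 ± 0.13 (SE, limma adjusted p = 2.55e-08) from E18 to 8w. Slit2 was the 1 fall between E18 and 3d that also passed with centred libraries (-0.59, limma adjusted p = 0.00633), and its calls held without any single library. Slit2 was 1 of 6 entries that fell in both steps, with Robo1, Sema3a, Sema6d, Epha3 and Efna5 under the identifier ENSMUSG00000048915. The other Efna5 entry passed in neither step (limma adjusted p = 0.259 and 0.0532).

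Slit3, a secreted paralogue of Slit2, stood at 7.58, 5.25 and 7.24 at E18, 15.02, 8.10 and 5.29 at 3d, and 2.04, 4.30 and 3.08 at 8w FPKM. The first 3d library was high, and E18 and 3d overlapped. Slit3 fell between 3d and 8w (log2 fold change -1.27 ± 0.31, SE, limma adjusted p = 0.00509), and its 8w values overlapped with none of the E18 or 3d values. The call from E18 to 8w, -0.92 ± 0.31 (SE, limma adjusted p = 0.0234), was lost when libraries were centred (-0.56, limma adjusted p = 0.113), and without E18 replicate 1 or 3 or 8w replicate 1 or 3. The ratio of Slit2 to Slit3 within a library, in which a factor common to a library cancels, was 4.14 to 5.71 at E18, 1.32 to 2.96 at 3d and 0.971 to 1.86 at 8w. The ranges at E18 and 3d did not overlap, and those at 3d and 8w did. Slit1 had at most 3 fragments in a library and was not tested.

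Both Slit2 and Slit3 host a copy of the miR-218 gene in an intron, on the strand of the host (RefSeq, GRCm38.p6). The mature 5p product is the same from both copies, at chr5:48223966-48223986 in Slit2 and at chr11:35616840-35616860 in Slit3. It is shown, with its seed (bases 2 to 8) in capitals, because this product is known to target Robo1, so that its hosts and its target are all members. Mature miRNAs are not analysed here.
mmu-miR-218-5p: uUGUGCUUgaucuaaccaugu

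The Robo receptors, which bind Slits, changed places between the stages. Robo1 stood at 7.05, 5.20 and 6.41 at E18, 4.12, 4.10 and 3.92 at 3d, and 0.645, 0.634 and 0.847 at 8w FPKM. Its libraries separated by stage, with the 8w values under 1 FPKM. The log2 fold change was -0.51 ± 0.13 (SE, limma adjusted p = 0.0184) for 3d against E18 and -1.56 ± 0.13 (SE, limma adjusted p = 3.8e-06) for 8w against 3d, and the first call was lost with centred libraries (-0.33, limma adjusted p = 0.109) and when E18 replicate 1, E18 replicate 3 or 3d replicate 2 was left out. Robo2 stood at 4.74, 3.13 and 4.25 at E18, 2.79, 3.71 and 3.76 at 3d, and 0.612, 0.661 and 0.656 at 8w FPKM, with overlap between E18 and 3d and none with 8w. It fell between 3d and 8w (log2 fold change -1.42 ± 0.16, SE, limma adjusted p = 2.41e-05). On recovered fragments, where no value of 1 is added, edgeR gave larger falls for both genes between 3d and 8w, -2.32 for Robo1 and -2.19 for Robo2.

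Robo4, a receptor of endothelial cells with a part in vessel stability, moved the other way. It stood at 5.73, 5.66 and 5.45 at E18, 10.2, 8.17 and 6.95 at 3d, and 7.63, 9.52 and 7.71 at 8w FPKM. All 3d and 8w libraries were above all E18 libraries, and 3d and 8w overlapped. Robo4 rose between E18 and 3d by 0.50 ± 0.14 (SE, limma adjusted p = 0.0254), a call that was lost without any 1 of the E18 libraries or 3d replicate 1 or 2. It was also higher at 8w than at E18, by 0.48 ± 0.14 (SE, limma adjusted p = 0.0109), and that call held without any single library. Between 3d and 8w the log2 fold change was -0.01 ± 0.14 (SE, limma adjusted p = 0.936). The ratio of Robo4 to the sum of Robo1 and Robo2 was 0.486 to 0.678 at E18, 0.904 to 1.47 at 3d and 5.13 to 7.35 at 8w, with no overlap between stages. Robo4 held 35.6% ± 4.18 of the Robo FPKM at E18, 52.6% ± 6.28 at 3d and 85.8% ± 2.17 at 8w. The 7 endothelial markers (Pecam1, Cdh5, Tek, Kdr, Emcn, Egfl7 and Esam) summed to 339 to 368 FPKM at E18, 350 to 442 at 3d and 316 to 379 at 8w. Of these 7, 2 rose and 0 fell between E18 and 3d, and 1 rose and 1 fell between E18 and 8w. For 8w against E18 the endothelial split was 4 higher and 0 lower with centred libraries and in edgeR, and 3 and 0 with quantile normalization. From E18 to 3d it was 3 and 0 when centred and 4 and 0 in edgeR. Over all tested genes, 3673 were higher and 3170 lower at 8w than at E18 with centred libraries. On these other scales the endothelial markers that were called were all higher, and the rest did not pass. Their part in the Robo4 result was not tested. Robo3, known for commissural axons, had at most 3 fragments in a library and was not tested.

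The promoters of these genes differ in composition, and those of Slit2, Robo1 and Robo4 are shown because these genes carried the change of the Slit and Robo class. Each is the RefSeq window (GRCm38.p6) from 250 bases before to 50 after a transcript start, on the strand of the gene. Capitals mark a TATA box (TATAAA) or a GC box (GGGCGG, written CCGCCC where it lies on the other strand). The Slit2 window is chr5:47982905-47983204, plus strand, the Robo1 window chr16:72662899-72663198, plus strand and the Robo4 window chr9:37401722-37402021, plus strand. The Robo1 start lies inside the gene body that GENCODE vM21 draws from 72308306 to 73046095.
Slit2: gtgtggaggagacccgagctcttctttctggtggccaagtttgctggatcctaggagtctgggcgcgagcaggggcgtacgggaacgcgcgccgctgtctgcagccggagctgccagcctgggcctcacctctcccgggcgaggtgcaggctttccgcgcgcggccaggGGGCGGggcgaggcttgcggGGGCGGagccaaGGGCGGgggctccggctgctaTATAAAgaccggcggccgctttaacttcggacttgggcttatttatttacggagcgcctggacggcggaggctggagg
Robo1: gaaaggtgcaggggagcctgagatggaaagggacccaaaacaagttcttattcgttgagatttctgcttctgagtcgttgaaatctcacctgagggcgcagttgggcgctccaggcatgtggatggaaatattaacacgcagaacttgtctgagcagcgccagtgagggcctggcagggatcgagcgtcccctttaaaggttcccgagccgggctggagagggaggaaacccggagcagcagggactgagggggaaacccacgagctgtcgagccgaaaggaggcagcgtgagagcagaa
Robo4: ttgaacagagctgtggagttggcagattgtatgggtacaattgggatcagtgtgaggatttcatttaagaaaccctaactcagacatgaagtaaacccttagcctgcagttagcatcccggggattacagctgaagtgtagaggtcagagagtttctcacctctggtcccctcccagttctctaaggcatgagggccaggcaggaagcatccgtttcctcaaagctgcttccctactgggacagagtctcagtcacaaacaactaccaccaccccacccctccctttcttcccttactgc
The Slit2 window held 30 CpG dinucleotides, 1 TATA box and 3 GC boxes, the Robo1 window 15 CpG and neither box, and the Robo4 window 2 CpG and neither box. Over the 32851 promoters of the table the median was 7 CpG.

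**Figure D2:**
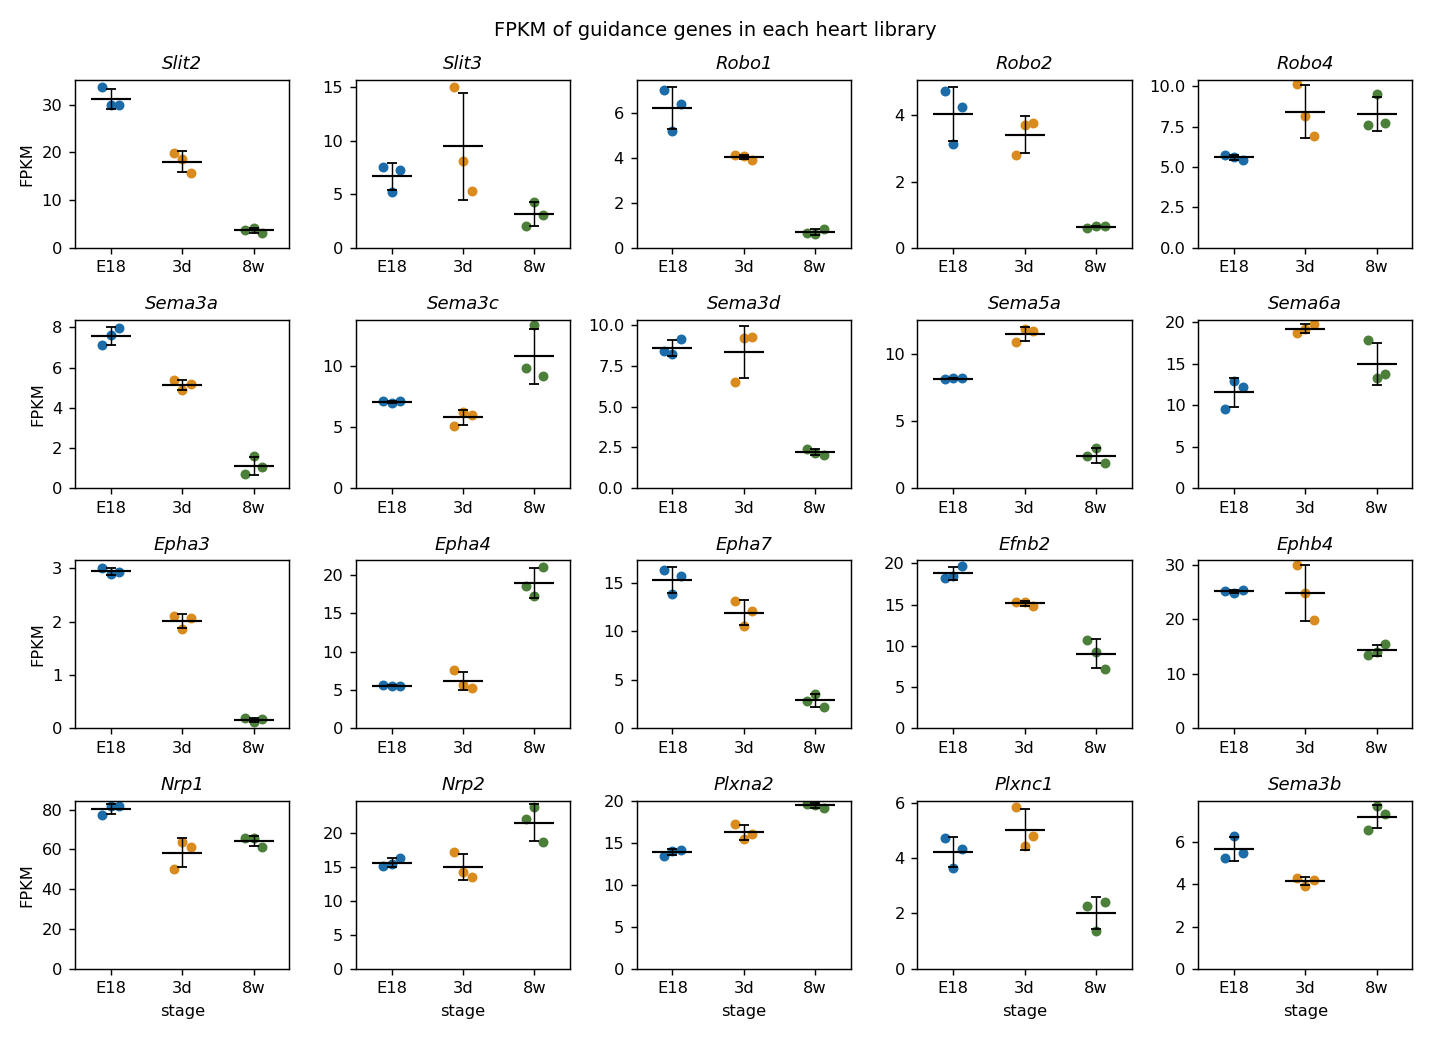
FPKM (y axis, from 0) in each of the 9 libraries for 20 guidance genes, by stage (x axis). Points are libraries, the long bar is the mean and the whiskers are 1 SD over 3 libraries. Slit2, Robo1, Robo2, Sema3a and Epha7 are lower at 8w than at either earlier stage in every library, and Epha4 and Sema3c are higher.

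Among the 7 secreted semaphorins, Sema3a and Sema3d fell after birth while Sema3c, Sema3b and Sema3g were higher in the adult heart than at E18. Sema3a, a repellent of sympathetic axons that sets nerve density in the mouse heart, stood at 7.11, 7.61 and 7.98 at E18, 5.38, 4.89 and 5.17 at 3d, and 0.68, 1.59 and 1.05 at 8w FPKM. The stages did not overlap. Sema3a fell between E18 and 3d (log2 fold change -0.48 ± 0.16, SE, limma adjusted p = 0.0442) and again between 3d and 8w (log2 fold change -1.57 ± 0.16, SE, limma adjusted p = 1.17e-05). The first of these calls was lost with centred libraries (-0.30, limma adjusted p = 0.176) and when any 1 of the E18 or 3d libraries or 8w replicate 3 was left out. The 9 markers of neurons and Schwann cells summed to 11.2 to 12.3 FPKM at E18, 5.52 to 9 at 3d and 4.84 to 6.75 at 8w, and both tested markers were lower at 8w than at E18, against 1 of them with centred libraries or in edgeR; their part was not tested.

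Sema3d, known for patterning of the pulmonary veins in the mouse, stood at 8.43, 8.20 and 9.13 at E18, 6.49, 9.21 and 9.26 at 3d, and 2.42, 2.13 and 2.05 at 8w FPKM. E18 and 3d overlapped and 8w lay below both. Its log2 fold change was -1.53 ± 0.14 (SE, limma adjusted p = 6.5e-06) for 8w against 3d. Sema3c, which guides cardiac neural crest into the outflow tract, stood at 7.10, 6.94 and 7.13 at E18, 5.08, 6.25 and 6.01 at 3d, and 9.85, 13.3 and 9.13 at 8w FPKM. All 8w libraries were above all others. Sema3c rose between 3d and 8w by 0.78 ± 0.14 (SE, limma adjusted p = 0.000728) and was higher at 8w than at E18 by 0.53 ± 0.14 (SE, limma adjusted p = 0.00658). The ratio of Sema3c to Sema3a was 0.893 to 0.999 at E18, 0.945 to 1.28 at 3d and 8.38 to 14.5 at 8w. Sema3c thus went from 21.4% ± 0.52 of the class FPKM at E18 to 40.4% ± 4.35 at 8w, while the class sum was 32.9 ± 0.631 FPKM at E18 and 26.5 ± 2.80 at 8w.

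Sema3b, a secreted ligand of neuropilins, was lowest at 3d, at 5.25, 6.29 and 5.48 at E18, 4.29, 3.93 and 4.21 at 3d, and 6.59, 7.69 and 7.34 at 8w FPKM. The 3d libraries were below all others. It fell between E18 and 3d (log2 fold change -0.37 ± 0.11, SE, limma adjusted p = 0.0336) and rose between 3d and 8w by 0.67 ± 0.11 (SE, limma adjusted p = 0.000477). The fall was not called with centred libraries (-0.20, limma adjusted p = 0.251) or without any 1 of the E18 libraries or 3d replicate 2 or 3, while the rise was (0.85, limma adjusted p = 7.76e-05). Sema3b was also higher at 8w than at E18, by 0.30 ± 0.11 (SE, limma adjusted p = 0.037), a call lost without E18 replicate 1 or 3, 3d replicate 2 or 8w replicate 2 or 3. Sema3g, known from arterial endothelium, stood at 2.14, 2.03 and 1.89 at E18, 3.10, 3.76 and 2.75 at 3d, and 3.09, 2.77 and 3.51 at 8w FPKM. It was lower in every E18 library than in any later one and rose by 0.47 ± 0.13 (SE, limma adjusted p = 0.0272) between E18 and 3d, a call lost without any 1 of the E18 libraries or 3d replicate 2. At 8w it was above E18 by 0.45 ± 0.13 (SE, limma adjusted p = 0.0134), a call lost without 8w replicate 3. Sema3f, a Nrp2 ligand, passed in no comparison, at 1.96 ± 0.161, 1.74 ± 0.727 and 1.96 ± 0.136 FPKM. Sema3e, the ligand of Plxnd1, lay under the filter at 0.31 FPKM or less in each library.

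Among the 13 membrane-bound semaphorins, Sema6d was the most abundant at E18 and 3d, and it fell in both steps. It stood at 32.9, 32.4 and 34.6 at E18, 27.4, 20.8 and 20.7 at 3d, and 17.1, 14.3 and 12.7 at 8w FPKM, and it is known to bind Plxna1 and to act in chamber formation in the chick. The stages did not overlap. Sema6d fell between E18 and 3d (log2 fold change -0.53 ± 0.13, SE, limma adjusted p = 0.0158) and between 3d and 8w (log2 fold change -0.61 ± 0.13, SE, limma adjusted p = 0.00247), and of these calls the second held with centred libraries (-0.43, limma adjusted p = 0.0143). Its first call was also lost without E18 replicate 3 or 3d replicate 2.

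Sema6a, a membrane ligand of Plxna2 and Plxna4, rose between E18 and 3d. It stood at 9.56, 12.9 and 12.2 at E18, 18.7, 19.2 and 19.8 at 3d, and 17.8, 13.3 and 13.7 at 8w FPKM, with the 3d libraries above all others. The rise was 0.70 ± 0.14 (SE, limma adjusted p = 0.00515), and it held without any single library and with centred libraries (0.87, limma adjusted p = 0.00352). Between 3d and 8w the log2 fold change was -0.35 ± 0.14 (SE, limma adjusted p = 0.0447), and this call was lost with centred libraries (-0.17, limma adjusted p = 0.351) and without any 1 of the 3d libraries, E18 replicate 3 or 8w replicate 2 or 3. At 8w Sema6a was above E18 by 0.34 ± 0.14 (SE, limma adjusted p = 0.0452), a call lost without E18 replicate 1 or 3, 3d replicate 2 or 3, or 8w replicate 1 or 3. Without 8w replicate 1 the value was 0.22, and without E18 replicate 1 it was also 0.22. The ratio of Sema6a to Sema6d was 0.29 to 0.399 at E18, 0.683 to 0.953 at 3d and 0.935 to 1.08 at 8w, where their libraries overlapped.

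Sema5a, a membrane semaphorin with thrombospondin repeats, peaked at 3d. It stood at 8.10, 8.20 and 8.20 at E18, 10.9, 11.9 and 11.7 at 3d, and 2.42, 2.96 and 1.87 at 8w FPKM, and the stages did not overlap. It rose by 0.45 ± 0.13 (SE, limma adjusted p = 0.027) between E18 and 3d, a call lost without any 1 of the E18 libraries or 3d replicate 2 or 3. It then fell between 3d and 8w (log2 fold change -1.88 ± 0.13, SE, limma adjusted p = 7.73e-07), a call that held without any single library. Sema7a, which is anchored by a lipid and binds Plxnc1 and integrins, stood at 8.07, 8.69 and 7.88 at E18, 10.4, 14.3 and 10.2 at 3d, and between 9.89 and 10.4 at 8w FPKM. It rose between E18 and 3d by 0.45 ± 0.13 (SE, limma adjusted p = 0.0272), with no overlap, and that call was lost without any 1 of the E18 libraries or 3d replicate 2. For 8w against E18 Sema7a was 0.27 ± 0.13 (SE, limma adjusted p = 0.0876) on the deposited scale and 0.63 with centred libraries (limma adjusted p = 0.00139).

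Sema4a, known for its part in T cell priming, was higher at 8w than at E18. It stood at 0.0735, 0.227 and 0.303 at E18, 0.468, 1.23 and 0.626 at 3d, and 1.18, 1.69 and 4.46 at 8w FPKM. Every 8w library was above every E18 library, and 3d overlapped with 8w. Its log2 fold change was 1.41 ± 0.30 (SE, limma adjusted p = 0.00194) for 8w against E18 and 0.86 ± 0.30 (SE, limma adjusted p = 0.0303) for 8w against 3d. The second call was lost without 8w replicate 3, where the value fell to 0.473, and without 3d replicate 1 or 3. The fragments behind the 8w values were 40, 36 and 39, so that the 8w libraries differed less in fragments than in FPKM. The E18 values rested on 2, 6 and 8 fragments. With stage means of 0.201, 0.775 and 2.44 FPKM, Sema4a passed the filter (mean 1.14) only through its 8w level, so the rise and its being tested are not independent. The 4 macrophage markers in the table summed to 8.43 to 11.3 FPKM at E18, 8.71 to 17.6 at 3d and 35.2 to 44.2 at 8w, and 3 of the 4 rose between E18 and 8w. Their part in the Sema4a result was not tested.

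Sema4b, a class 4 membrane semaphorin, stood at 8.49, 9.34 and 8.41 at E18, 8.38, 6.70 and 6.61 at 3d, and 4.15, 4.43 and 4.40 at 8w FPKM. It fell between 3d and 8w (log2 fold change -0.62 ± 0.12, SE, limma adjusted p = 0.000945), with no overlap. Sema4c, a ligand of Plxnb2, Sema4d, a ligand of Plxnb1, Sema6b and Sema6c passed in no comparison on the deposited scale. Sema4d was at 5.35 ± 0.468, 4.81 ± 0.633 and 5.44 ± 0.681 FPKM, and with centred libraries it was higher at 8w than at E18 (0.38, limma adjusted p = 0.0207). Sema6b was likewise 0.33 on the deposited scale and 0.68 when centred for 8w against E18 (limma adjusted p = 0.0823 and 0.00214). Sema4f, Sema4g and Sema5b lay under the filter.

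The plexins, which carry the signal of semaphorins into the cell, were led by Plxnb2, Plxnd1 and Plxna2. Plxnb2 stood at 36.9, 33.7 and 38.00 at E18, 29.2, 26.8 and 22.05 at 3d, and 19.5, 22.9 and 23.4 at 8w FPKM. Each E18 library was above all others, and 3d and 8w overlapped. Its log2 fold change was -0.47 ± 0.12 (SE, limma adjusted p = 0.0163) for 3d against E18, lost with centred libraries (-0.29, limma adjusted p = 0.0797) and without E18 replicate 1 or 3, and -0.70 ± 0.12 (SE, limma adjusted p = 0.000396) for 8w against E18.

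Plxnd1, the endothelial receptor of Sema3e, stood at 29.3, 25.9 and 27.2 at E18, 31.6, 28.2 and 21.7 at 3d, and 16.1, 19.6 and 18.4 at 8w FPKM. It fell between 3d and 8w (log2 fold change -0.55 ± 0.14, SE, limma adjusted p = 0.00511). The difference for 8w against E18, -0.58 ± 0.14 (SE, limma adjusted p = 0.00313), was not called with centred libraries (-0.22, limma adjusted p = 0.121) or by edgeR (-0.21, adjusted p = 0.154). Plxna2, which with Sema3c acts in the cardiac neural crest, went the other way at 13.5, 14.1 and 14.2 at E18, 17.3, 15.5 and 16.1 at 3d, and 19.7, 19.6 and 19.2 at 8w FPKM. Its stages did not overlap, and it was 0.46 ± 0.09 (SE, limma adjusted p = 0.000777) higher at 8w than at E18. The rise between 3d and 8w, 0.25 ± 0.09 (SE, limma adjusted p = 0.0282), was lost without 3d replicate 2 or 3 or any 1 of the 8w libraries. Plxna4 stood at 9.14, 7.86 and 8.72 at E18, 9.55, 6.95 and 6.14 at 3d, and 4.34, 4.94 and 4.72 at 8w FPKM and fell between 3d and 8w (log2 fold change -0.57 ± 0.15, SE, limma adjusted p = 0.00642). The ratio of Plxna2 to Plxna4, both receptors of Sema6a, was 1.48 to 1.79 at E18 and 3.96 to 4.55 at 8w.

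Plxnc1, the receptor of Sema7a, stood at 4.71, 3.64 and 4.34 at E18, 5.84, 4.43 and 4.79 at 3d, and 2.27, 1.36 and 2.43 at 8w FPKM and fell between 3d and 8w (log2 fold change -1.01 ± 0.17, SE, limma adjusted p = 0.00048), with every 8w library below all others. Plxna3 was lower at 8w than at E18 (log2 fold change -1.29 ± 0.31, SE, limma adjusted p = 0.00366), at 3.14, 3.08 and 2.42 FPKM at E18 and 0.492, 0.911 and 0.377 at 8w. Its 3d values of 2.83, 0.803 and 0.432 FPKM ran from the E18 range to the 8w range. The fragments behind them were 81, 45 and 32, below the 170, 130 and 117 at E18. For 3d against E18 Plxna3 had -0.85 ± 0.31 (SE, limma adjusted p = 0.065) and was called lower in edgeR (-1.27, adjusted p = 0.0164). Plxna1 and Plxnb1 passed in no comparison, and Plxnb3 lay under the filter.

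The neuropilins both stayed above 13 FPKM in every library. Nrp1 stood at 77.5, 81.98 and 81.5 at E18, 50.2, 63.7 and 61.3 at 3d, and 65.6, 65.6 and 61.3 at 8w FPKM. The E18 libraries were above all others. It fell between E18 and 3d (log2 fold change -0.46 ± 0.10, SE, limma adjusted p = 0.00784), a call that was lost with centred libraries (-0.28, limma adjusted p = 0.116). The difference for 8w against E18, -0.32 ± 0.10 (SE, limma adjusted p = 0.0154), turned to 0.04 with centred libraries and to 0.06 in edgeR, and was lost without E18 replicate 3 or 8w replicate 3. For 8w against 3d Nrp1 had 0.14 ± 0.10 (SE, limma adjusted p = 0.243) and did not pass with quantile normalization (0.15, limma adjusted p = 0.216). It was called higher there with centred libraries (0.32, limma adjusted p = 0.0347) and in edgeR (0.33, adjusted p = 0.0139). Nrp2, the neuropilin of lymphatic vessels and veins, stood at 15.2, 15.5 and 16.4 at E18, 17.2, 14.4 and 13.5 at 3d, and 22.2, 23.9 and 18.7 at 8w FPKM. Its 8w libraries were above all others, and it rose between 3d and 8w by 0.49 ± 0.12 (SE, limma adjusted p = 0.00476) and was 0.43 ± 0.12 (SE, limma adjusted p = 0.00873) higher at 8w than at E18. The ratio of Nrp1 to Nrp2 was 4.98 to 5.30 at E18, 2.91 to 4.53 at 3d and 2.74 to 3.29 at 8w, so that E18 and 8w did not overlap on a measure free of library scale. The 5 lymphatic markers summed to 46.2 to 52.2 FPKM at E18 and 43.1 to 46.8 at 8w, with 1 higher and 2 lower. With quantile normalization, centred libraries or edgeR, 2 of the 5 were higher and 0 lower, and the rest did not pass. Over all 11954 tested genes, 3673 were higher and 3170 lower with centred libraries. The part of the lymphatic markers in the Nrp2 result was not tested.

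Among the ephrins, the ligands of Eph receptors, the adult heart had less Efna5, Efnb2 and Efnb3. Efna5, an ephrin-A that can bind EphA receptors and EphB2, was listed under 2 identifiers that share its symbol and locus. Whether reads were divided between them or counted under both was not given, so each value is uncertain. ENSMUSG00000048915 stood at 24.9, 18.4 and 22.1 at E18, 15.5, 16.1 and 14.6 at 3d, and 7.55, 5.68 and 8.86 at 8w FPKM and ENSMUSG00000090425 at 10.7, 13.6 and 8.15 at E18, 6.57, 7.27 and 10.7 at 3d, and 6.45, 3.79 and 5.46 at 8w. The first fell between 3d and 8w (log2 fold change -0.99 ± 0.15, SE, limma adjusted p = 0.000272), and its stages did not overlap. The second had -0.56 ± 0.22 (SE, limma adjusted p = 0.0532) in that comparison and was lower at 8w than at E18 (log2 fold change -0.92 ± 0.22, SE, limma adjusted p = 0.00424), a call lost with centred libraries (-0.56, limma adjusted p = 0.0696). Their sum, which would count shared reads more than once if they were listed under both and which moves with the length used for each, was 32.6 ± 2.70 FPKM at E18, 23.6 ± 1.59 at 3d and 12.6 ± 2.72 at 8w, with no overlap between stages. The call of the first from E18 to 3d (log2 fold change -0.47 ± 0.15, SE, limma adjusted p = 0.0456) was lost with centred libraries (-0.29, limma adjusted p = 0.238) and without E18 replicate 1 or 3, any 1 of the 3d libraries or 8w replicate 1.

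Efnb2, the ephrin of arterial endothelium, stood at 18.2, 18.4 and 19.7 at E18, 15.3, 15.4 and 14.8 at 3d, and 10.6, 9.28 and 7.16 at 8w FPKM. Its stages did not overlap, and it fell between 3d and 8w (log2 fold change -0.70 ± 0.13, SE, limma adjusted p = 0.000751). Ephb4, its receptor on venous endothelium, stood at 25.1, 24.8 and 25.4 at E18, 29.9, 24.7 and 19.8 at 3d, and 13.5, 13.98 and 15.5 at 8w FPKM. Its 8w libraries were below all others, and it fell in the same step (log2 fold change -0.74 ± 0.13, SE, limma adjusted p = 0.000757). The ratio of Ephb4 to Efnb2 was 1.29 to 1.38 at E18, 1.34 to 1.96 at 3d and 1.27 to 2.16 at 8w, and these ranges overlapped. The endothelial markers had sums that overlapped between all stages, as given above, and 1 of 7 rose and 2 fell between 3d and 8w (1 and 1 with centred libraries).

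Efnb3, another ephrin-B, was the most abundant of its class, at 25.3, 25.1 and 22.6 at E18, 31.5, 24.3 and 22.7 at 3d, and 11.7, 13.1 and 17.5 at 8w FPKM. It fell between 3d and 8w (log2 fold change -0.85 ± 0.16, SE, limma adjusted p = 0.000835), with no overlap. Efna1, a ligand of Epha2 and Epha3, and Efnb1 passed in no comparison, at 11.1 ± 2.20 and 6.15 ± 0.914 FPKM at 8w. Efna2, Efna3 and Efna4 lay under the filter, and Efna3 had at most 2 fragments in a library.

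The main EphA receptor changed between 3d and 8w. The summed level of the class was 27.2 ± 0.692 FPKM at E18, 23.1 ± 2.87 at 3d and 24.7 ± 0.848 at 8w, and every later library was below every E18 library. Epha7 stood at 16.3, 13.8 and 15.7 at E18, 13.1, 10.6 and 12.2 at 3d, and 2.87, 3.59 and 2.22 at 8w FPKM. Its 8w libraries were far below all others. It fell between 3d and 8w (log2 fold change -1.74 ± 0.14, SE, limma adjusted p = 3.23e-06), and its value from E18 to 8w was -2.08 ± 0.14 (SE, limma adjusted p = 5.67e-07). Epha4, which can bind ephrins of both classes, stood at 5.65, 5.57 and 5.50 at E18, 7.58, 5.63 and 5.31 at 3d, and 18.5, 17.2 and 21.05 at 8w FPKM, with every 8w library above all others. It rose by 1.48 ± 0.13 (SE, limma adjusted p = 5.87e-06) between 3d and 8w and was 1.59 ± 0.13 (SE, limma adjusted p = 2.23e-06) above E18 at 8w, on the log2(FPKM + 1) scale the largest rise among the guidance genes in either comparison. In edgeR Epha4 had 2.15 for 8w against E18, below Sema4a at 2.88. In limma, with the set of tested genes unchanged, both genes kept their calls for 8w against E18 without any single library. As given above, Sema4a was tested only through its 8w level, so its value and its kept call are not independent of that level. Epha4 also kept its call for 8w against 3d, and the edgeR fits were not repeated in this way.

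The ratio of Epha4 to Epha7 was 0.346 to 0.404 at E18, 0.437 to 0.579 at 3d and 4.78 to 9.48 at 8w, with no overlap between stages. Epha4 held 20.5% ± 0.383 of the EphA FPKM at E18, 26.6% ± 2.79 at 3d and 76.5% ± 5.32 at 8w, and Epha7 held 56.1% ± 3.72, 51.8% ± 1.96 and 11.8% ± 3.17. Epha3, a receptor of Efna1 that acts in formation of the atrioventricular valves in the mouse, stood at 3.01, 2.89 and 2.93 at E18, 2.11, 1.87 and 2.07 at 3d, and 0.189, 0.125 and 0.183 at 8w FPKM. Its stages did not overlap. It fell between 3d and 8w (log2 fold change -1.37 ± 0.12, SE, limma adjusted p = 5.17e-06), and edgeR on its 163, 154 and 174 fragments at 3d and 20, 12 and 16 at 8w gave -3.40. Its call for 3d against E18, -0.39 ± 0.12 (SE, limma adjusted p = 0.0381), was lost with centred libraries (-0.21, limma adjusted p = 0.27) and without any 1 of the E18 libraries or 3d replicate 2 or 3. Epha2, an endothelial and epithelial receptor, passed in no comparison on the deposited scale, and its value for 8w against 3d was -0.06 there and 0.44 in edgeR (adjusted p = 0.0351).

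The windows of Epha4 and Epha7 are shown because these paralogues traded places; capitals mark a GC box as above. The Epha4 window is chr1:77515039-77515338, minus strand, and the Epha7 window chr4:28812881-28813180, plus strand.
Epha4: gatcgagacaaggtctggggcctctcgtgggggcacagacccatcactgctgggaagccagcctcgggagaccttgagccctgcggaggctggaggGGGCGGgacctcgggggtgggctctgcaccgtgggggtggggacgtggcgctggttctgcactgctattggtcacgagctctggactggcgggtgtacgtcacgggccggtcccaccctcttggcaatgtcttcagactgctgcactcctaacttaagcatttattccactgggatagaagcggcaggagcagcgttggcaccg
Epha7: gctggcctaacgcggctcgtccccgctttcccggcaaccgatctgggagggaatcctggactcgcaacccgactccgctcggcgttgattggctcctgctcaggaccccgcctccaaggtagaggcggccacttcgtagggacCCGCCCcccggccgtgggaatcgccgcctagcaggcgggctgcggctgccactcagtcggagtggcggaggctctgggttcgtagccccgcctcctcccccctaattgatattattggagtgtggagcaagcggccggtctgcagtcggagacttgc
Both held 1 GC box and no TATA box, with 17 CpG in the Epha4 window and 28 in the Epha7 window.

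**Figure D3:**
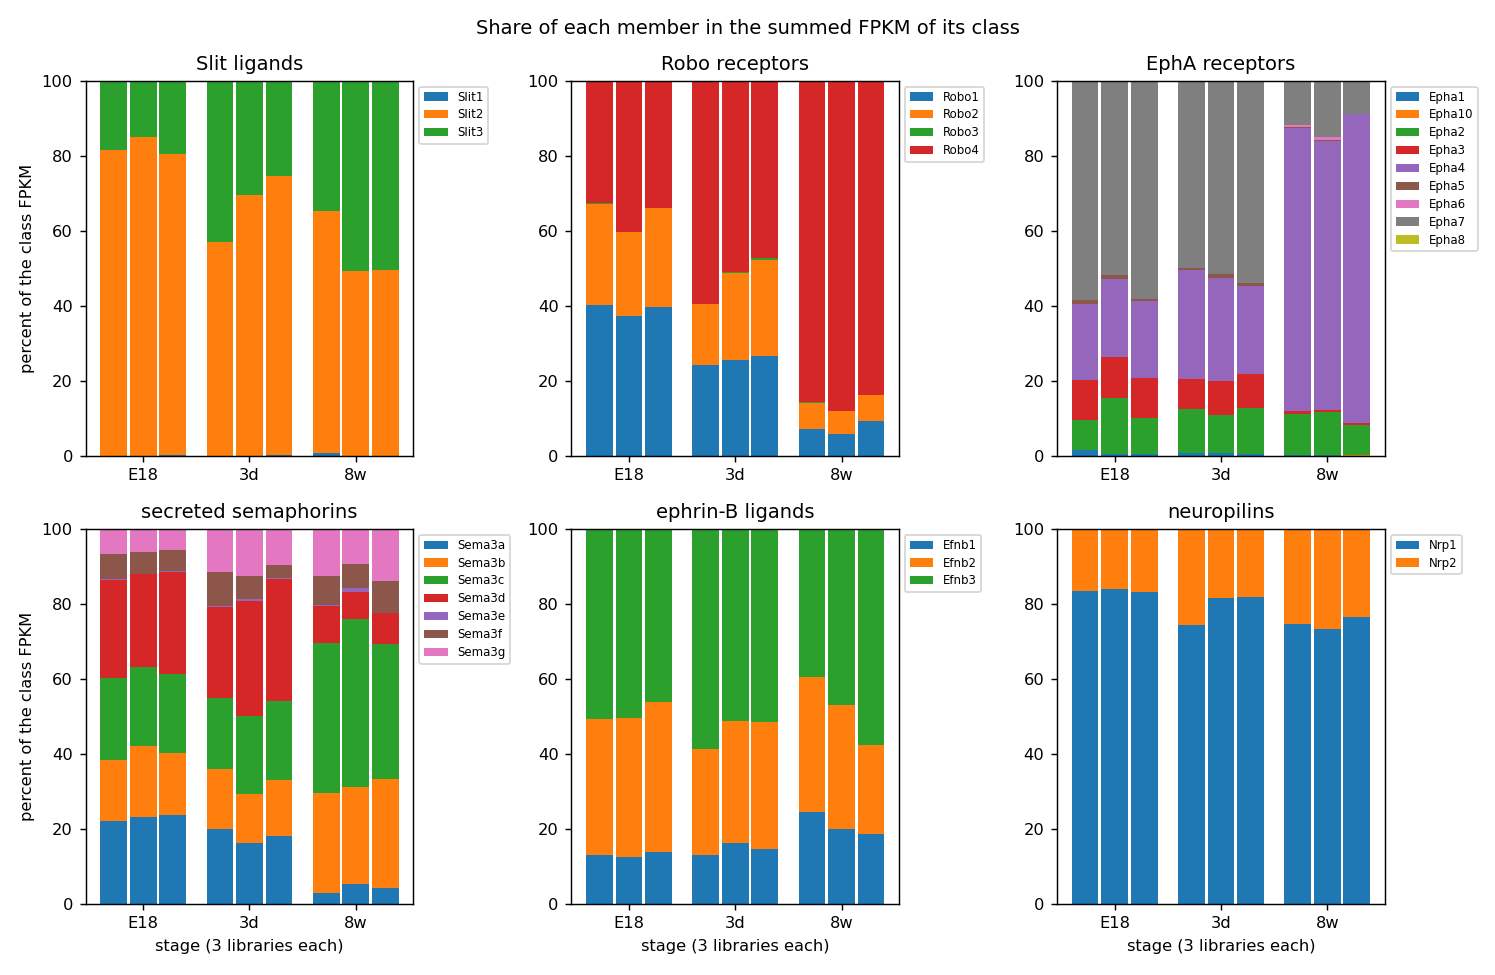
Percent of the summed FPKM of a class (y axis) held by each of its members, with 1 bar per library and 3 bars per stage (x axis), for the Slit, Robo, EphA, secreted semaphorin, ephrin-B and neuropilin classes. Epha4 goes from 20.5% of the EphA signal at E18 to 76.5% at 8w and Robo4 from 35.6% of the Robo signal to 85.8%.

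Of the EphB receptors only Ephb3 and Ephb4 passed the filter. Ephb3 stood at 6.93, 3.85 and 6.39 at E18, 5.02, 3.73 and 2.59 at 3d, and 1.86, 3.17 and 2.52 at 8w FPKM and was lower at 8w than at E18 (log2 fold change -0.92 ± 0.24, SE, limma adjusted p = 0.00582), with no overlap between those stages. The class sum fell from 33.3 ± 2.0 FPKM at E18 to 18.9 ± 1.62 at 8w, and Ephb4 held most of it, from 75.5% ± 4.0 to 75.8% ± 5.85.

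The 18 genes under the filter were Sema3e, Sema4f, Sema4g, Sema5b, Plxnb3, Efna2, Efna3, Efna4, Epha1, Epha5, Epha6, Epha8, Epha10, Ephb1, Ephb2, Ephb6, Slit1 and Robo3. With no filter, edgeR on recovered fragments called 11 of them for 8w against E18, where it called 49.1% of the 17339 coding genes with fragments and 22.9% of the 5385 among these under the filter. Ephb1, a neural ephrin-B receptor, was higher at 8w by 1.21 (edgeR adjusted p = 0.000492), with 41, 51 and 37 fragments at E18 and 110, 116 and 67 at 8w. Plxnb3, a receptor of Sema5a, was higher by 2.13 (edgeR adjusted p = 6.34e-05), with 12, 10 and 11 fragments at E18 and 39, 52 and 49 at 8w. Sema4g was lower by an edgeR log2 fold change of -2.76 and Efna2 by -1.28. Sema4f and Epha6 also passed as higher, although Sema4f had 3, 9 and 10 fragments at 8w and Epha6 had 10, 12 and 0, with 0 in every E18 library of both. Sema5b, Efna4, Epha1, Epha5 and Ephb2 were lower, on at most 66 fragments in a library. The other 7 were not called, which at this depth does not show that they were unchanged.

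The other genes of these pathways were taken as 6 lists with 111 genes in the table, of which 85 were tested in 86 entries, since Mical3 has 2; the counts are of entries. In all, 2 rose and 18 fell between E18 and 3d, 15 rose and 46 fell between 3d and 8w, and 17 rose and 52 fell between E18 and 8w. This is 23.3%, 70.9% and 80.2% of the entries, against 26.4%, 58.4% and 65% of all tested genes. The 2 rises from E18 to 3d are both Mical3, an actin-oxidizing enzyme singled out here after its values were seen, at 0.58 and 0.51 on the log2 scale (limma adjusted p = 0.017 and 0.0359), and its reads may be shared between the entries. With centred libraries the split for 8w against E18 was 23 higher and 30 lower, and for 3d against E18 it was 7 and 7. For 8w against 3d it was 20 and 32.

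The effectors of semaphorins and plexins, which reshape actin and microtubules, had 3 higher and 15 lower of 23 tested entries at 8w against E18, and 4 and 9 with centred libraries. For this and the lists that follow, the share over all tested genes in that comparison was 17.7% higher and 47.3% lower. Dpysl3, a microtubule-binding collapsin response mediator, averaged 146, 119 and 28.4 FPKM at E18, 3d and 8w and fell between 3d and 8w (log2 fold change -2.02 ± 0.10, SE, limma adjusted p = 1.08e-07). Mical2, an actin-oxidizing enzyme, averaged 149, 107 and 32.1 FPKM and was -2.18 ± 0.15 (SE, limma adjusted p = 5.58e-07) at 8w against E18. Mical1 and Farp1, a plexin-linked exchange factor, were -1.50 ± 0.18 (SE, limma adjusted p = 3.19e-05) and -1.85 ± 0.14 (SE, limma adjusted p = 1.01e-06) in that comparison.

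Of 11 tested effectors of Slit and Robo, 2 were higher and 9 lower at 8w than at E18 (2 and 6 with centred libraries). Srgap1, the GTPase-activating protein that binds Robo1, averaged 9.51, 9.34 and 1.72 FPKM and fell between 3d and 8w (log2 fold change -1.90 ± 0.18, SE, limma adjusted p = 8.82e-06). Flrt3, a membrane protein that binds Robo1, averaged 4.34, 1.93 and 0.233 FPKM and fell between E18 and 3d (log2 fold change -0.87 ± 0.13, SE, limma adjusted p = 0.00161) and between 3d and 8w (log2 fold change -1.24 ± 0.13, SE, limma adjusted p = 1.83e-05). Arhgap39 was -1.08 ± 0.15 (SE, limma adjusted p = 0.000115) at 8w against E18. Gpc1, a heparan sulphate proteoglycan that binds Slits, averaged 30.3, 24.4 and 78.3 FPKM and rose between 3d and 8w by 1.64 ± 0.12 (SE, limma adjusted p = 9.87e-07).

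Of 21 tested effectors of Eph and ephrin, 4 were higher and 12 lower at 8w than at E18. With centred libraries 6 were higher and 5 lower, and with quantile normalization 5 and 7, so the excess of falls depended on the scale. Kalrn, an exchange factor downstream of EphB receptors, averaged 29.4, 20.6 and 8.70 FPKM and was -1.65 ± 0.11 (SE, limma adjusted p = 4.59e-07). Anks1, an adaptor that binds Eph receptors, averaged 6.67, 7.64 and 16.7 FPKM and was 1.19 ± 0.19 (SE, limma adjusted p = 0.000307). The kinase Src and the adaptor Nck2 were -1.18 ± 0.18 (SE, limma adjusted p = 0.000182) and -0.96 ± 0.14 (SE, limma adjusted p = 0.000151).

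Of 6 tested netrin pathway genes, another guidance family, 2 were higher and 4 lower at 8w than at E18 (2 and 2 with centred libraries). Ntn4 averaged 16.2, 13 and 4.75 FPKM and was -1.58 ± 0.10 (SE, limma adjusted p = 2.41e-07), and Unc5b, an endothelial netrin receptor, was -1.42 ± 0.19 (SE, limma adjusted p = 8.79e-05). Ntn1 was -0.61 ± 0.10 (SE, limma adjusted p = 0.000416) and Rgma, a neogenin ligand, 0.98 ± 0.19 (SE, limma adjusted p = 0.00109).

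A mixed list held VEGF ligands and, apart from them, co-receptors that are not limited to VEGF. Of its 14 tested genes, 5 were higher and 4 lower at 8w than at E18 (7 and 3 with centred libraries). The genes named from it here are not VEGF ligands. The receptor kinase Erbb2 averaged 12, 7.98 and 1.68 FPKM and was -2.28 ± 0.14 (SE, limma adjusted p = 2.64e-07). Met was -0.89 ± 0.19 (SE, limma adjusted p = 0.0021), Cd72, a Sema4d receptor of B cells, 0.95 ± 0.18 (SE, limma adjusted p = 0.000985), and Tyrobp, an adaptor of myeloid cells, 1.03 ± 0.20 (SE, limma adjusted p = 0.000918). Of 11 tested proteases that shed or process guidance proteins, 1 was higher and 8 lower (2 and 5 with centred libraries). Mmp14 averaged 33.5, 31.7 and 6.93 FPKM and was -2.12 ± 0.16 (SE, limma adjusted p = 1.11e-06), Adam12 was -1.35 ± 0.26 (SE, limma adjusted p = 0.000909) and Pcsk5 -1.08 ± 0.12 (SE, limma adjusted p = 2.28e-05). Pcsk6, a proprotein convertase, was the 1 that rose on the deposited scale, from 7.24, 7.28 and 36 FPKM at E18, 3d and 8w, by 2.16 ± 0.13 (SE, limma adjusted p = 3.21e-07) between 3d and 8w.

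Markers of other cell types moved with the stages as well, and their part in the guidance gene results was not tested. All 4 epicardial markers fell between E18 and 8w, with sums of 38.9 to 44.2 FPKM at E18, 23.8 to 27 at 3d and 9.14 to 11.6 at 8w. All 4 proliferation markers fell, from 266 to 326 FPKM at E18 to 120 to 170 at 3d and 5.57 to 9.63 at 8w. All 3 endocardial and valve markers (2 with centred libraries) fell, from 38.8 to 44.1 FPKM at E18 to 17.1 to 21.2 at 8w. Of 6 fibroblast markers 2 were higher and 3 lower at 8w than at E18, with sums of 479 to 536 and 402 to 537 FPKM. Of 6 smooth muscle and pericyte markers 3 were higher and 1 lower, with sums of 422 to 470 and 342 to 416 FPKM. The 3 erythroid markers fell, from 300 to 419 FPKM to 68.5 to 142, and 1 of 3 platelet markers rose, with sums of 5.34 to 7.1 and 9.24 to 25.5 FPKM. Of 5 tested cardiomyocyte markers 3 were higher and 0 lower at 8w than at E18. With quantile normalization 3 were higher and 2 lower, with centred libraries 4 and 0, and in edgeR 5 and 0.

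Other readouts of the same loci were sparse. The lncRNA table tied 64 transcripts to 31 of the guidance genes. The lncRNA 0610007N19Rik, which the table lists as bidirectional to Sema5a, averaged 7.30 ± 1.36 at E18, 6.64 ± 0.457 at 3d and 4.20 ± 0.728 at 8w FPKM. Its 8w libraries were below all others, but it did not share the 3d peak of Sema5a, since its E18 and 3d values overlapped. BC125002, inside an intron of Efna5 on its strand, averaged 2.38 ± 0.305 at E18, 1.62 ± 0.236 at 3d and 0.832 ± 0.227 at 8w FPKM, with no overlap between stages. Whether strand was used in counting was not given, so reads of overlapping transcripts cannot be told apart.

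Of 4610 circular RNAs, which are closed by a back-splice, 13 lay under 9 guidance genes with 52 junction reads in all. One passed the minimum of 10 reads, the circle of Efnb2 exon 2 (chr8:8639206-8639489 in the coordinates of the files, GRCm38, 284 bases, both ends at the exon edges of ENSMUST00000001319.14). It had 1, 0 and 0 reads at E18, 0, 0 and 2 at 3d, and 9, 2 and 1 at 8w. Most of the 8w reads came from 1 library. The edgeR adjusted p was 0.967 from E18 to 3d, 0.325 from 3d to 8w and 0.169 from E18 to 8w, so it was not called, where 0.319%, 2.88% and 4.95% of the 626 tested circRNAs were. Linear Efnb2 fell over the same stages. The libraries held 2676 to 4494 junction reads, and their number limits what could be detected.

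Beyond family, the promoters of the guidance genes were rich in CpG. A RefSeq window was found for 53 of the 61. The median was 21 CpG dinucleotides (quartiles 14 and 29) against 7 (3 and 20) over 32851 promoters of the same length. A GC box (GGGCGG, both strands) was in 73.6% of the 53 and in 35.7% of all. A TATA box (TATAAA, both strands) was in 3.8% and 13.6%, the GATA motif AGATAA in 3.8% and 11.2%, the TEAD motif GGAATG in 11.3% and 14.7%, the E box CACGTG in 5.7% and 7.2%, and CCAAT in 32.1% and 37.4%. These are matches of letters in a window, given as a description. The sets were chosen differently. Each guidance gene had a single window, at the start nearest to its annotated gene start. The 32851 were every start listed, with several for some genes and no limit to the genes tested here.

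**Figure D4:**
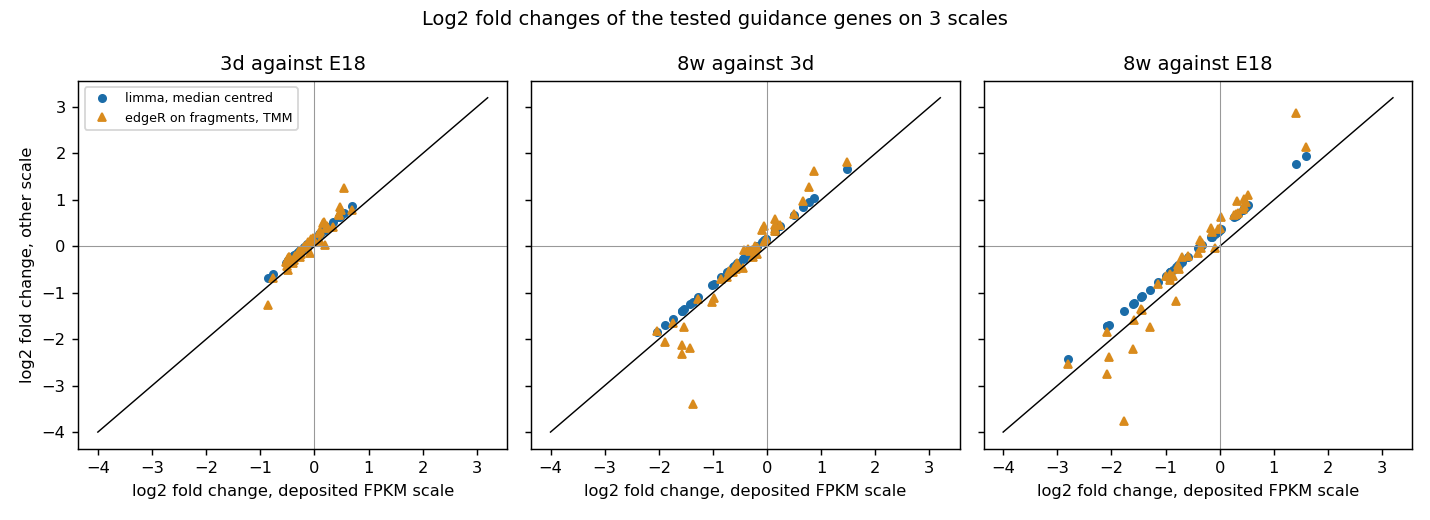
Log2 fold change of the 43 tested guidance genes on the deposited FPKM scale (x axis) against that with centred libraries (circles) and from edgeR on fragments (triangles, y axis), for the 3 comparisons, with the line of equal values. Circles lie above the line by the difference between the stages in the mean of their library medians. The lowest triangle of the middle and right panels is Epha3, at -3.40 and -3.75 in edgeR.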

How the data were processed

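Total RNA of 9 mouse heart libraries (E18, 3d and 8w, 3 each) was sequenced, per the labels' protocols. The submitters' processing notes name cutadapt 1.9.1, HISAT2 2.0.4 and Cuffdiff and the builds GRCm38 and mm10; strand setting, annotation release and circRNA caller were not given in the sources used here. FPKM values per gene and library were computed by the authors, per the file headers. The deposited estimated counts lay at whole multiples of 1 step per library (0.80325 to 1.11566), and 94.4% to 95.1% of the low ones came within 0.01 of a whole number once divided by it, so fragments were recovered in that way. The circRNA counts are back-splice junction reads as deposited by the authors, and 9 further per-sample columns of that table matched no library and were left out.

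Coding genes with a mean of at least 1 FPKM over 9 libraries were tested with limma 3.58.1 (R 4.3.3) with a mean-variance trend on log2(FPKM + 1), all 9 libraries in 1 fit with 6 residual degrees of freedom, two-sided, with Benjamini-Hochberg adjustment over all tested genes. CircRNAs with at least 10 reads were tested with edgeR 4.0.16 (quasi-likelihood, TMM). The fits were also run on simulated data with known changes in both directions. No shift of the median gene was simulated, so that run does not bear on the scale of the libraries. The members, gene lists and marker lists were chosen with earlier results of these data known. The 8 largest rises and falls of members per comparison and the most abundant member of each class have full statistics in at least 1 comparison. For several large falls from E18 to 8w only the statistics of the steps are given. From the pathway lists, up to 4 genes with the largest change are named. Ratios between members, the lncRNAs and the low members described singly were chosen after their values were seen. The alternatives tried were other pseudocounts and filters, quantile normalization or median centring of the libraries, no trend in limma, fits of 2 stages, a replicate block, edgeR and DESeq2 1.42.0 on the fragments, a stricter threshold and leaving out each library. No pairing by replicate number was found, and p-values measure the spread between these samples.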

Additional observations from a re-analysis of the deposited data

How the results depend on the processing

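The comparison from E18 to 3d depended most on the processing, and the cause was not tested. Against 14 members called (5 higher, 9 lower), quantile normalization and median centring each called 7 (1 lower), edgeR with TMM and edgeR with no filter each called 9 (3 lower), DESeq2 called 5 as lower, and an adjusted p under 0.01 left 3 (1 higher, 2 lower). Leaving out 1 library gave 3 to 15 called, 1 to 5 higher and 2 to 11 lower. The lowest counts were 4 without E18 replicate 1, 7 without E18 replicate 2, 3 without E18 replicate 3, 4 without 3d replicate 2 and 9 without 3d replicate 3. Over all coding genes 3152 were called, 1404 at the stricter threshold and 1820 to 3331 without 1 library. For the entries of the pathway lists, 2 higher and 18 lower became 8 and 6 (quantile), 7 and 7 (centred) and 10 and 8 (edgeR). From 3d to 8w members called ran from 22 to 26 without 1 library, and 12 rather than 6 were higher in edgeR with no filter. From E18 to 8w they ran from 27 to 34, with 16 rather than 9 higher in edgeR with no filter, 5 higher at the stricter threshold and 30 rather than 52 pathway genes lower when centred. Nrp1 from E18 to 8w reversed to 0.039 (centred), 0.062 (edgeR, TMM), 0.048 (edgeR, no filter) and 0.044 (DESeq2), and Epha2 from 3d to 8w reversed to 0.445 (edgeR) and 0.441 (DESeq2). Same-numbered libraries did not deviate together (correlations of -0.125 to 0.101 in 9 pairs, against -0.129 to 0.13 in 18 others). A replicate block gave 10, 23 and 30 members called in the 3 comparisons. Depth limits the 18 members under the filter.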
